A study of Mus musculus with 4 samples.

Results

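M8 neurons are the population that the authors named M8.Nr5a1 in their deposited annotation of nuclei from the mouse mediobasal hypothalamus. Every nucleus whose neuron cluster begins with M8 was taken. There were 1954 such nuclei among 23261 annotated neurons and 36523 annotated nuclei of all types, which made M8 the population with the most nuclei of 37. The study compared wild-type mice, fed chow at will, that received either saline or insulin, and profiled FACS-sorted nuclei with 10x 3' single-nucleus RNA sequencing. The labels name 2 Saline and 2 Insulin libraries and state neither dose, route, interval nor sex. They do not say how many mice a library holds, so the replicates are these 4 libraries, whose spread may be partly technical. The gene tests also borrow an estimate of spread from other genes, so a small p does not rest on a gene's own libraries alone.

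Nr5a1 encodes steroidogenic factor 1 (SF-1), a nuclear receptor transcription factor whose expression in the brain marks neurons of the ventromedial nucleus of the hypothalamus. These neurons are largely glutamatergic. They are known for roles in energy expenditure, glucose counter-regulation, and defensive and social behaviour, and leptin acts on part of them. Erbb4, to which the treatment comparison leads, encodes a receptor tyrosine kinase for neuregulins.

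Each sequencing run in the deposited annotation held 1 Saline and 1 Insulin library, so libraries are named by treatment and run, with the runs called A and B. Values for the 4 libraries are given throughout in the order Saline run A, Saline run B, Insulin run A, Insulin run B. They held 454, 619, 437 and 444 M8 nuclei, with 5405725, 7548921, 5469912 and 4336166 UMIs (unique molecular identifiers, counted transcripts). The median M8 nucleus had 11133, 11436, 11635 and 8950.5 UMIs, and the median over nuclei of other neuron populations was 8252. Levels are in CPM, the UMIs of a gene scaled to a total of 1000000 UMIs in the same nuclei and library, and they are compared between populations or libraries, not between genes. The Saline library of run A stood apart in M8: Pcsk1n, an inhibitor of prohormone processing, was at 145 CPM there against 465, 380 and 474 CPM, and Actb, cytoplasmic actin, at 31.8 against 109, 84.1 and 88.6 CPM. In other neurons Pcsk1n was also lowest in that library, with 168 CPM against 497, 393 and 497 CPM. Runs also differed in sex-linked genes. For Xist, made from the inactive X chromosome, the M8 values were 0.555, 1416, 0.548 and 1523 CPM, and for Uty, on the Y chromosome, 149, 1.46, 139 and 1.38 CPM. Run and sex cannot be told apart. In M8, 1712 genes (11.9%) differed between runs by edgeR at an adjusted p under 0.05, of which 898 (6.22%) were higher in run B. Among all annotated nuclei 318 barcode sequences occurred in more than 1 library, most of them in pairs of the same run. Only 6 M8 nuclei had such a barcode, and no barcode was M8 in both of its libraries.

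The label was first set beside the gene it names. The name was given to these same nuclei, so a high level of that gene in M8 is a description and not a check. Nr5a1 (ENSMUSG00000026751, GRCm38 chromosome 2, 38692656 to 38714542, minus strand) was at 38.7, 52.5, 52.7 and 57.9 CPM in M8, which was 50.4 ± 8.23 CPM (SD, n = 4). The next populations were M6.Slc17a8 with 26.5 ± 3.03 CPM, M7.Ust with 25.3 ± 2.54 CPM and M9.Fezf1 with 22.2 ± 4.72 CPM (SD, n = 4 each). The lowest M8 library lay above the highest library of each of these populations, at 29.6, 27.0 and 27.8 CPM. M1.GABA, with 168 nuclei of few UMIs, was uneven, at 0, 65.0, 15.01 and 0 CPM. A UMI of Nr5a1 was found in 42.0% of M8 nuclei and in 21.7% of M9.Fezf1 nuclei. The share was 2.26% in microglia, a cell type that should lack the gene, with a median of 2326.5 UMIs per nucleus against 10757.5 in M8. After every nucleus was thinned to 3000 UMIs, which left out 12 M8 and 294 microglia nuclei, these shares were 15.1%, 6.35% and 1.35%. How counting treated reads of the antisense gene Nr5a1os is not given in the sources used here.

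The authors' second annotation, of clusters conserved across datasets, placed 1929 M8 nuclei (98.7%) in C22.Nr5a1. Another 21 were in C23.Fezf1, 2 in C27.GLUT and 2 in C15.GABA. Of all nuclei in C22.Nr5a1, 81.3% were M8 and 16.9%, or 400 nuclei, were M9.Fezf1. None of the 423 nuclei that the authors labelled doublets was M8.

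Nr5a1, Rai14 and Gpr149 had the largest log2 differences in level between M8 and the mean of the other neuron populations. M8 was compared with the 34 other populations that had at least 10 nuclei in each library. The clusters were built from these same genes, so the differences are a description without a test. The 25 leading genes, ranked by log2 difference among genes with at least 20 CPM in every M8 library, lay between 2.68 and 5.03 log2 units above the mean of the other populations. M8 had the highest level of 35 populations for 18 of the 25 and ranked 2nd or 3rd for the other 7. M9.Fezf1 was among the 3 next populations for 18 of them, and for 23 of them every M8 library lay above every M9.Fezf1 library. The ranking chose genes that were high in M8, so these counts follow in part from it. Over all 12461 genes at 5 CPM or more, in M8 or in the mean of the other populations, M8 was highest for 2.14%. The same limit is used for the counts of gene lists below. The share of all genes with M8 above M9.Fezf1 in every library was not computed.

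After Nr5a1 came Rai14, an actin-associated protein, with 108, 112, 86.7 and 98.2 CPM in M8 and 22.1 CPM in M9.Fezf1. The next population for Rai14 was M1.GABA, with an uneven 52.5 ± 95.3 CPM (SD, n = 4). Gpr149, an orphan G protein-coupled receptor, followed with 273, 334, 302 and 345 CPM, against 180 CPM in M9.Fezf1 and 145 CPM in M7.Ust. For both genes the lowest M8 library lay above the mean of each other population. Hs3st3b1, a heparan sulfate sulfotransferase, had 37.7 ± 2.15 CPM, and Rtp4, a chaperone that brings receptors to the cell surface, had 56.9 ± 6.28 CPM (SD, n = 4 each). In M9.Fezf1 these genes were at 10.6 and 13.1 CPM. Slit3, a secreted axon guidance ligand, was at 1196, 1112, 1096 and 1152 CPM in M8, at 1029.6 ± 39.2 CPM in M6.Slc17a8 and at 650 ± 48.7 CPM in M9.Fezf1 (SD, n = 4 each).

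The transcription factors Glis3 and Zfp831 also ranked among the 25, although other populations were higher. Glis3 was at 124 CPM in M8 and 213 CPM in M31.Th. Zfp831 was at 60.8 CPM in M8, 86.3 CPM in M4.GABA and 64.0 CPM in M7.Ust. Of the matrix and secreted proteins, Hmcn2 (hemicentin) was at 90.0 ± 4.68 CPM, the metalloprotease Adamts9 at 110.0 ± 9.38 CPM and the tolloid-like protease Tll2 at 30.6 ± 4.47 CPM. The membrane protein Megf11 was at 501 ± 65.0 CPM (SD, n = 4). The activin-type receptor Acvr1c was at 65.7 ± 6.47 CPM, below 352 CPM in M26.Agrp, Tnfrsf8, the receptor CD30, at 29.7 ± 5.84 CPM and the kinase Prkd1 at 525 ± 37.1 CPM. The other leading genes included Ankrd33b, Ccnjl, Steap3, Lemd1, Slc24a4, Sptlc3 and Sntg2. Tll2, Steap3 and Slc24a4 had higher means in M11.GLUT, M7.Ust and M6.Slc17a8, in that order, than in M8. At the limit of the ranking, Prkd1 stood inside with a difference of 2.68, and Hs3st4 and Palmd stood just outside with 2.67 and 2.66.

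**Figure D1:**
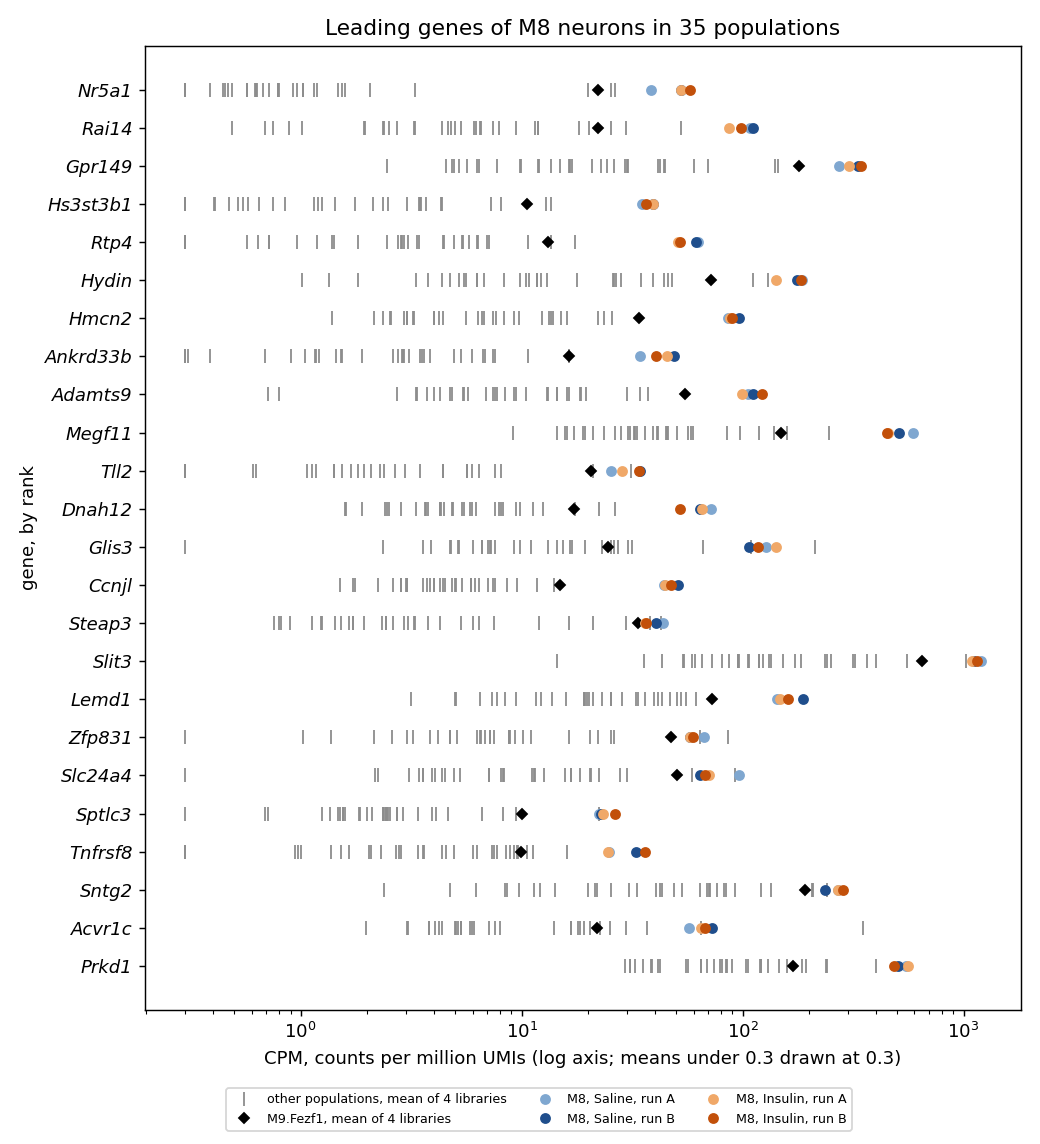
Leading genes of M8 by rank, with CPM on a log axis. Coloured points are the 4 M8 libraries, diamonds the mean of M9.Fezf1 and ticks the means of the 33 other populations compared. The M8 mean lies to the right of every other population for 18 genes, while Acvr1c is higher in M26.Agrp.

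Hydin and Dnah12, which encode parts of motile cilia, were among the leading genes, with 172 ± 20.5 and 63.4 ± 8.32 CPM in M8 (SD, n = 4). Both were far higher in the nuclei annotated Ependymo, the ciliated lining of the ventricle, with 1163 and 2817 CPM. Other leading genes were also higher in a non-neuronal type than in M8. Glis3, Slc24a4 and Sptlc3 were at 124, 74.6 and 23.8 CPM in M8 and at 1248.5, 401 and 210.2 CPM in Ependymo. Megf11 was at 706 ± 149 CPM in oligodendrocyte precursors and Ccnjl at 72.2 CPM in oligodendrocytes against 46.9 CPM in M8. Rai14 in mural cells, at 126 ± 48.8 CPM (SD, n = 4), overlapped its M8 values. Other defining markers of ependymal cells were near 0 in M8. Foxj1, Ccdc153 and Rarres2 had 0.868, 0.575 and 0.876 CPM in M8 against 82.8, 305 and 107 CPM in Ependymo, and the tanycyte factor Rax had 0.572 CPM. Of the 8 tanycyte and ependymal markers, 3 were above 5 CPM, Dnah12 and Col23a1 among them, none was at 0, and their summed level was 178, 177, 178 and 189 CPM.

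M8 had the profile of glutamatergic neurons. Slc17a6, the vesicular glutamate transporter VGLUT2, was at 113, 135, 123 and 129 CPM, 1.63 log2 units above the other populations, and held 11th place. Gad1 and Gad2, which make GABA, were each lowest in M8 of 35 populations, at 5.57 ± 2.82 and 11.9 ± 3.04 CPM (SD, n = 4). Tyrosine hydroxylase, Th, had 0.421 CPM. Over all 12461 genes at 5 CPM or more in M8 or in the others, M8 was above the mean of the others for 33%. It had the lowest level for 2.97%. A gene under 5 CPM in M8 passes only where the others are higher, so counts below the mean follow in part from this limit.

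Beside Nr5a1, high transcription factors included Sox14 (12.4 ± 2.40 CPM, log2 difference 2.38), Nkx2-2 (10.9 ± 2.26 CPM, 2.26) and Nr2f2, also called COUP-TFII (136 ± 21.4 CPM, 2.16). Of 66 listed region factors at 5 CPM or more, 27 were above the mean of the others, against 33% over all genes. Dlx6os1, a transcript of the Dlx locus of GABA neurons, was lowest of 35 populations at 2.30 CPM. Hmx2 and Ebf3 were at 0.414 and 0.839 CPM against 6.79 and 14.6 CPM in the mean of the others.

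Few neuropeptides were high in M8, with 3 of 24 above the mean of the others, against 33% over all genes. Adcyap1, which encodes PACAP, a peptide used by ventromedial neurons, was at 13.3, 31.9, 17.6 and 20.5 CPM. It was 1.39 log2 units above the other populations, in 9th place, and lowest in the Saline library of run A. Cbln1, a synaptic organiser, was at 14.3 ± 3.41 CPM and Pdyn, the dynorphin precursor, at 6.39 ± 0.838 CPM (SD, n = 4). Vgf, a granule peptide precursor, was at 13.1 CPM against a mean of 57.5 CPM, and Pnoc was lowest of all populations at 3.17 CPM. In contrast, the convertase Pcsk2 was at 957 ± 79.8 CPM, which was 2nd among 35 populations. Peptide transcripts of other neurons were also counted in M8, such as Agrp at 78.6 CPM, which is highest in M26.Agrp at 855 CPM.

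Peptide receptors leaned the other way, with 16 of 28 above the mean of the others, against 33% over all genes. Nmur2, a neuromedin U receptor, was at 56.6, 66.5, 54.7 and 53.0 CPM, the highest of 35 populations, and the next was M15.Nts at 50.4 CPM. Qrfpr, for the peptide 26RFa, was at 37.0 ± 4.88 CPM and Oprd1, the delta opioid receptor, at 28.2 ± 1.88 CPM. The orexin receptor Hcrtr1 and the urocortin receptor Crhr2 were at 8.03 ± 2.40 and 10.8 ± 1.59 CPM (SD, n = 4 each). Low receptors were as distinct. Oprm1, the mu opioid receptor, was lowest of all populations at 19.7 ± 1.54 CPM against a mean of 117 CPM, and Tacr1, for substance P, was at 1.32 CPM against 28.0 CPM. Npy2r, Npffr2 and Crhr1 were each at or below 1.06 CPM.

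Among hormone receptors, Lepr, the leptin receptor, was at 48.8, 46.9, 41.3 and 42.4 CPM in M8. It was 1.64 log2 units above the mean of the others, in 7th place, and far below M26.Agrp with 473 CPM. In M9.Fezf1, the population most like M8, Lepr was at 16 ± 3.34 CPM. Nr3c1, the glucocorticoid receptor, was at 117 ± 9.14 CPM. Esr1, the estrogen receptor alpha of the ventrolateral part of the nucleus, was lowest of all populations at 11.5 ± 3.58 CPM, against 952 CPM in M28.Tac2. Calcr, the calcitonin receptor, was at 2.11 CPM. In all, 9 of 21 hormone receptors were above the mean of the others, against 33% over all genes.

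Receptors for small transmitters showed high cannabinoid, serotonin 1B, glycine and GABA-A subunits. Cnr1, the cannabinoid receptor CB1, was at 115, 172, 157 and 178 CPM, the highest of 35 populations, with M7.Ust next at 120 CPM. Htr1b was at 40.1 ± 4.14 CPM, 2.35 log2 units above the others, while Htr2c was at 55.5 ± 9.36 CPM, 1.73 below them. Adrb3, Hrh1 and Chrna4 were at 6.89, 36.5 and 6.32 CPM, in 3rd, 2nd and 3rd place, and the dopamine receptor Drd2 was at 0.871 CPM. M8 was highest for Glra1, a glycine receptor subunit (144 ± 6.38 CPM), and for the GABA-A subunits Gabra5 (203 ± 3.96 CPM) and Gabrb1 (2378 ± 63.4 CPM). Of 21 GABA and glycine receptor genes, 14 were above the mean of the others and 4 were highest in M8. Over all genes these shares were 33% and 2.14%. Of the glutamate receptors, Grm5 (2497 ± 158 CPM) and Grm7 (2772 ± 170 CPM) were high and the kainate subunit Grik1 was low, at 42.0 ± 2.91 CPM against 353 CPM.

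Ion channels and adhesion molecules held members in both directions. Of 62 channel genes, 39 were above the mean of the others, against 33% over all genes. The ERG-type potassium channel Kcnh7 (1162 ± 67.6 CPM), the small-conductance channel Kcnn3 (190 ± 25.2 CPM) and the ryanodine receptor Ryr2 (783 ± 17.7 CPM) were highest in M8. Kcnt2, a sodium-activated potassium channel, and Cacna1a, the pore of P/Q-type calcium channels, were lowest, at 30.8 ± 10.1 and 553 ± 27.3 CPM. Among 76 adhesion and guidance genes 41 were above the mean, against the same 33% over all genes. Slit3, Tenm2 (8541 ± 559 CPM), Tenm4 (1163 ± 70.6 CPM) and the neuregulin Nrg3 (7418 ± 420 CPM) were highest in M8, although M6.Slc17a8 followed within 1 SD for Tenm2, at 8357 CPM. The semaphorin receptor Nrp1 (4.58 ± 2.08 CPM against 67.4 CPM) and Sema6d (30.1 ± 5.41 CPM against 261 CPM) were lowest (SD, n = 4 throughout).

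**Figure D2:**
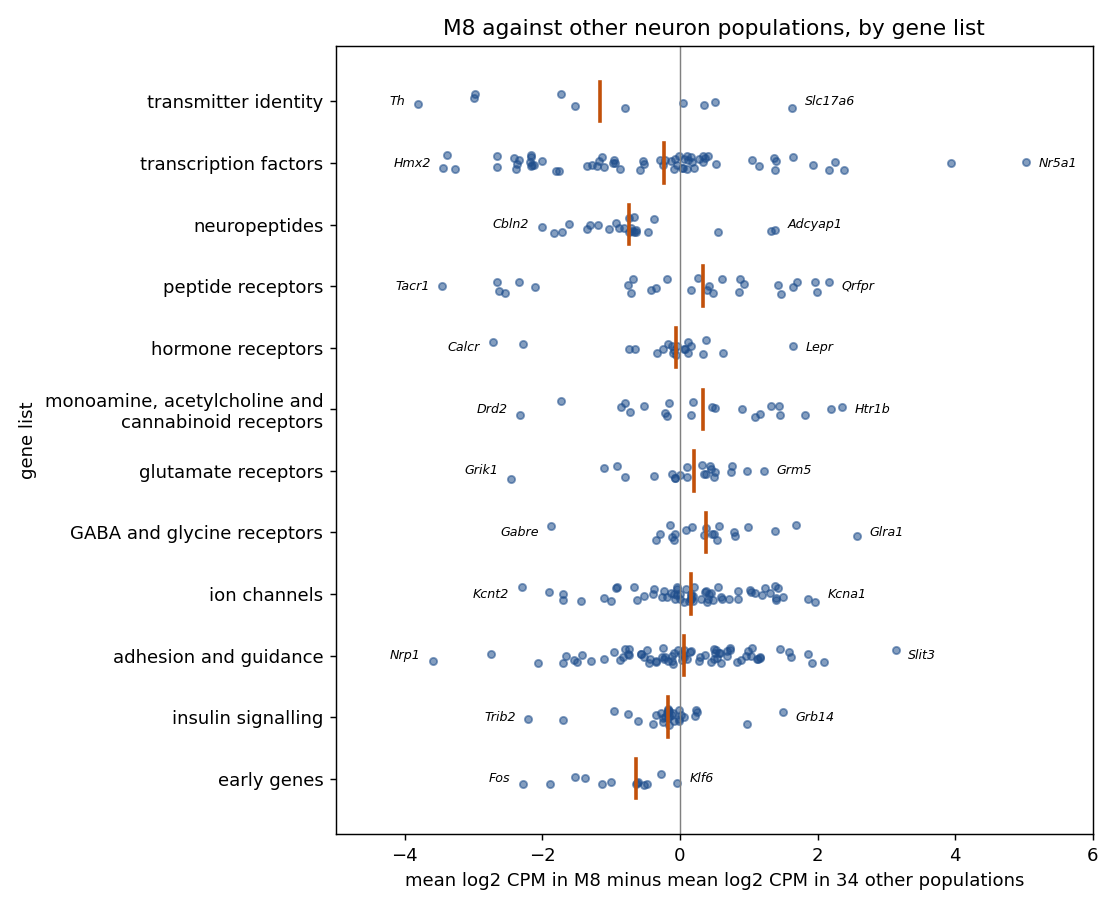
Difference in mean log2 CPM between M8 and 34 other populations for members of 12 gene lists. Members had at least 5 CPM in M8 or in the mean of the others. Points are genes, orange bars list medians, and the outermost genes are named. The early genes all lie below 0, while Nr5a1 and Slit3 lie above 3.

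Insulin signalling components were mostly near or below the other populations, with 7 of 32 above their mean, against 33% over all genes. Their median difference was -0.17, close to -0.13 over all genes. Insr, the insulin receptor, was at 120, 104, 117 and 105 CPM, 22nd of 35 populations. The adaptor Grb14, an inhibitor of the insulin receptor, was at 79.7, 95.2, 73.3 and 84.9 CPM and ranked 2nd, 1.49 log2 units above the others. Pik3r1, the regulatory subunit of PI 3-kinase, was at 120 ± 14.2 CPM in 4th place. Trib2, a pseudokinase that acts on Akt and FoxO, was lowest of all populations at 2.82 ± 0.526 CPM, and Irs4 and the phosphatase Ptpn1 were at 4.01 ± 0.456 and 49.8 ± 4.60 CPM (SD, n = 4), against 11.1 and 85.8 CPM. Early genes, which neurons induce on activation, were below the mean of the others for all 13 at 5 CPM or more in M8 or in the others. Over all genes at that level, 8349 of 12461 were below. Btg2 was lowest of 35 populations at 6.603 CPM.

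M9.Fezf1 resembled M8 more than any other population did. The correlation of mean log2 CPM over 14447 genes, a description across genes of libraries that share nuclei preparations, was 0.984 with M9.Fezf1, 0.962 with M11.GLUT, 0.960 with M7.Ust and 0.886 with the least similar, M1.GABA. Fezf1, a factor needed to form the ventromedial nucleus, was at 11.7 CPM in M8 and at 26.8 CPM in M9.Fezf1. Slc17a6 differed little between them, at 125 ± 9.40 and 135 ± 15.6 CPM (SD, n = 4 each). The NR5A motif with letters CAAGGTCA, searched on both strands of the 250 bases before the start sites, was in 0 of 19 leading genes with a RefSeq promoter (GRCm38.p6) and in 1.51% of 27025 genes. This says only that these letters are not in those windows.

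M8 nuclei were not uniform. Among 6275 genes with at least 0.2 UMI per nucleus in each library, the variance beyond counting noise, relative to the squared mean, had a median of 0.15. The 15 most variable genes had medians from 3.67 to 10.1. Alk, a receptor tyrosine kinase, led with 9.72, 10.5, 12.2 and 8.97, and 11.9% of M8 nuclei had a UMI of it. Rorb, an orphan nuclear receptor, followed with a median of 9.56, and Il1rapl2, a synaptic adhesion protein, with 9.13. Npsr1, the neuropeptide S receptor, and Ror1, a Wnt receptor kinase, had 7.16 and 6.89. The others were Htr2c, Unc13c, Etl4, Ccbe1, Erbb4, Adarb2, Grik1, Kcnmb2, Mir670hg and Nfia. The pair Rorb and Erbb4 had the largest median correlation over nuclei, 0.25 across the 4 libraries, a weak relation in sparse counts.

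Clustering of M8 nuclei alone gave 8 subgroups, numbered S1 to S8, each with nuclei from all 4 libraries. They are described by leading genes without a test and without names, and another resolution gave 5 or 13. S1 (541 nuclei) led with the kinase Ros1 at 115 ± 26.1 CPM against 14.1 CPM in the mean of the other subgroups, and with Pcdh11x. S2 (373 nuclei) led with Pdlim5 and Syt10 and had Trhr, the TRH receptor, at 40.4 ± 7.13 CPM against 9.59 CPM. S3 (310 nuclei) led with the zinc-finger factor St18 at 199 ± 21.3 CPM against 32.2 CPM, and Cerkl and Egfem1. The remaining subgroups each held 10.2% of M8 or less. S4 (199 nuclei) led with Chn2 and Cntn4, S5 (160 nuclei) with Fign, Ptprk and Bcl11a, and S7 (140 nuclei) with Ror1, Dach2 and the growth factor Fgf10. S6 (155 nuclei) led with the Wnt effector Tcf7l2, at 239 ± 45.7 CPM against 14.7 CPM, and with Rorb. S6 made up 4.41%, 8.08%, 12.4% and 6.98% of M8 in the 4 libraries.

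S8 (76 nuclei) led with Spag16, Nfib and Gad2. Its nuclei had a median of 14848 UMIs, and 31.6% of them had 2 or more UMIs of Gad1, Gad2 and Slc32a1 together, against 6.25% or less in each other subgroup. Whether S8 holds doublets was not tested. Nr5a1 ranged from 37.8 CPM in S6 to 60.1 CPM in S1, and Slc17a6 from 106 CPM in S8 to 147 CPM in S7. Lepr was highest in S1 and S3, at 60.8 ± 7.94 and 54.7 ± 6.95 CPM, and lowest in S7, at 19.0 ± 8.19 CPM. Erbb4 was at 801 ± 265 CPM in S6, 617 ± 155 CPM in S7 and 501 ± 71.1 CPM in S8, and between 97.4 and 318 CPM in the others (SD, n = 4 throughout).

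**Figure D3:**
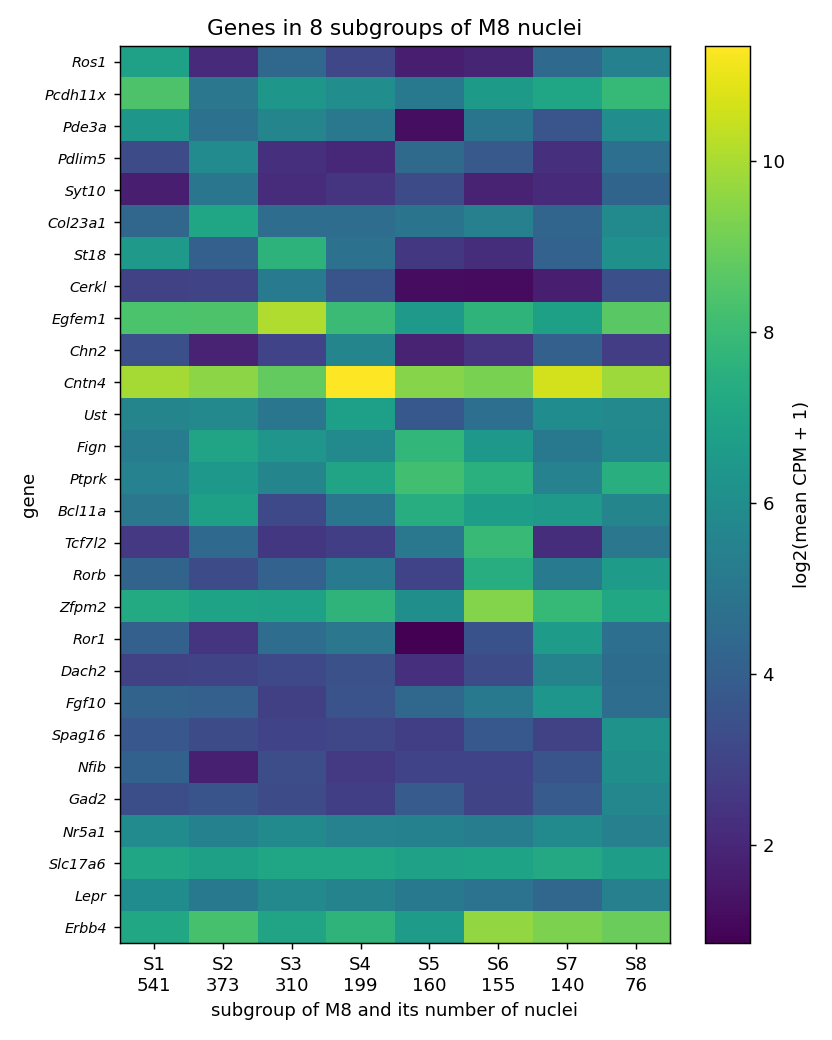
Mean level of subgroup genes, and of Nr5a1, Slc17a6, Lepr and Erbb4, in 8 subgroups of M8 nuclei, as log2(mean CPM + 1) over 4 libraries. Nr5a1 and Slc17a6 are near even across subgroups, and Erbb4 is highest in S6 and S7.

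The comparison of Insulin with Saline asked first whether M8 made up another part of the neurons. Its share was 7.13% and 11.6% in the Saline libraries and 8.03% and 7.25% in the Insulin libraries. The groups overlapped, and the Saline library of run B was the highest. The difference was -1.74 percentage points (means 9.38 ± 3.18% and 7.64 ± 0.55%, SD, n = 2 each; exact permutation test, two-sided, p = 1), where the smallest p that 2 against 2 libraries allow is 0.333. The difference was 0.896 points within run A and -4.37 points within run B.

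No gene passed the test of Insulin against Saline in M8 sums. Of 14447 genes, 0 had an adjusted p under 0.05 by edgeR's quasi-likelihood test, with 84 genes (0.581%) at an unadjusted p under 0.05. This fit held treatment only, so differences between runs counted as spread within each group and made it less sensitive. DESeq2 and limma-voom called 0, with 23 (0.159%) and 63 (0.436%) at an unadjusted p under 0.05. Both Insulin libraries lay above both Saline libraries for 10.7% of genes and below both for 12.7%. With the sequencing run as a block, edgeR called 126 genes (0.872%), 44 higher (0.305%) and 82 lower with Insulin, and 1219 (8.44%) had an unadjusted p under 0.05. DESeq2 with the same block called 0, with 133 (0.921%) at an unadjusted p under 0.05. With 4 libraries, a fit of treatment and run together barely measures a gene's own spread. Its edgeR p-values, also those between runs, rest largely on a spread shared across genes.

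Among the genes with the smallest unadjusted p, those higher with Insulin were mt-Co3, Calcr, Capn11, Tmem192, Eya1, Rab31, Dusp10 and Erbb4. The mitochondrial mt-Co3 was at 9.25, 10.1, 17.7 and 18.2 CPM, with no overlap of the groups and a log2 difference of 0.88 ± 0.22 (SE). The rise was not particular to M8. The 13 mitochondrial genes summed to 36.3, 56.4, 62.0 and 82.6 CPM in M8 and to 47.2, 59.4, 67.6 and 78.6 CPM in other neurons. Calcr, the calcitonin receptor, was at 0.740, 1.06, 3.66 and 2.998 CPM, and the lysosomal protein Tmem192 at 17.8, 19.3, 28.9 and 28.6 CPM. These genes were chosen for their p, so their separation is not a result in itself. Those lower with Insulin were Slamf1, Cpne9, Pafah2, Folr2, Mup6, Serpini1, Fam19a4 and Dpy19l2. Serpini1, the protease inhibitor neuroserpin, was at 109, 106, 77.9 and 85.8 CPM, with a log2 difference of -0.41 ± 0.13 (SE). Every edgeR adjusted p among these 16 genes was 1.00 without the run block. With it, 6 of the 8 higher genes passed by edgeR and none of the 8 lower genes did. The edgeR adjusted p was 0.0318 for mt-Co3, 0.0479 for Calcr, 0.000225 for Capn11, 0.0320 for Eya1, 0.0162 for Rab31 and 0.000411 for Erbb4. The 16 genes were picked for their p in these same 4 libraries, so this count is not separate support. Over all 14447 genes tested, 0.872% were called with the block.

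Erbb4 (ENSMUSG00000062209, GRCm38 chromosome 1, 68032186 to 69108059, minus strand) was the 1 gene called for a response that differed between M8 and other neurons. In M8 it was at 247, 194, 334 and 320 CPM, so both Insulin libraries lay above both Saline libraries. In other neurons it was higher in every library, at 1131, 904, 1128 and 1064 CPM, and the groups overlapped. The log2 change in M8 was 0.55 ± 0.18 (SE) with an edgeR adjusted p of 1.00, and 0.56 ± 0.11 with the run block (adjusted p = 0.000411). The response in M8 minus that in other neurons was 0.47 ± 0.07 (SE) on the log2 scale, with an edgeR adjusted p of 0.0463, and it was 0.44 within run A and 0.48 within run B. Of 19268 genes tested for such a difference, 1 was called (0.00519%), and 760 (3.94%) had an unadjusted p under 0.05. The call was lost with DESeq2 (adjusted p = 0.403), without the Saline library of run B (0.161) and without the Insulin library of run B (0.251). Over all alternatives tried the adjusted p ran from 7.33e-07, without a filter on low counts, to 0.403. Against M9.Fezf1, M11.GLUT and M7.Ust together the difference was 0.64 ± 0.09, with an adjusted p of 0.00477.

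Erbb4 was highest in S6, whose share of M8 was 4.41% and 12.4% in the Saline and Insulin libraries of run A. In run B that share was 8.08% with Saline and 6.98% with Insulin, and Erbb4 was at 194 and 320 CPM. With the subgroup makeup of all libraries held equal, Erbb4 was at 289, 199, 318 and 290 CPM, and the log2 difference was 0.34 in place of 0.58 from the sums. The Saline library of run A then lay just below the Insulin library of run B. Insulin means were above Saline means in 6 of 8 subgroups, and both Insulin libraries were above both Saline libraries in 2 of 8. These subgroups were made from the same nuclei, with Erbb4 among the genes available to the clustering. The part of subgroup makeup in the Erbb4 difference was not tested.

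Gm32647, a predicted transcript chosen here after its values were seen, had the smallest p with the run block. It was at 17.2, 26.9, 49.7 and 47.0 CPM in M8, with both Insulin libraries above both Saline libraries, and at 479, 358, 451 and 476 CPM in other neurons. With the block its log2 change in M8 was 1.13 ± 0.16 (SE; edgeR adjusted p = 4.91e-08), and without it the adjusted p was 1.00. The response in M8 minus that in other neurons was 0.93 ± 0.19 with an edgeR adjusted p of 0.496, and it was 1.62 within run A and 0.40 within run B. That difference passed against the 3 most similar populations (edgeR adjusted p = 0.00477) and without a filter on low counts (1.46e-11). It was 1.49 log2 units without the Saline library of run B and 0.99 without the Insulin library of run B.

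Other genes with the smallest p for a difference between M8 and other neurons did not pass the test. Those with the higher response in M8 were Kirrel3, an adhesion protein (log2 difference 0.39 ± 0.08, edgeR adjusted p = 0.520), Larp1b, Lmo3 and Tmem192. Those with the lower response were Zfp536, Cpne9, Fam19a4, Adamts2 and Stat3. Zfp536, a zinc-finger repressor of neuronal differentiation, was at 27.2, 22.7, 18.5 and 13.4 CPM in M8 and at 89.0, 72.9, 102 and 69.7 CPM in other neurons (-0.73 ± 0.14, adjusted p = 0.344). Stat3, the transcription factor that leptin activates, was at 37.2, 48.6, 28.7 and 37.8 CPM in M8 and at 53.0, 53.0, 57.7 and 63.4 CPM in other neurons (-0.58 ± 0.13, adjusted p = 0.726).

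**Figure D4:**
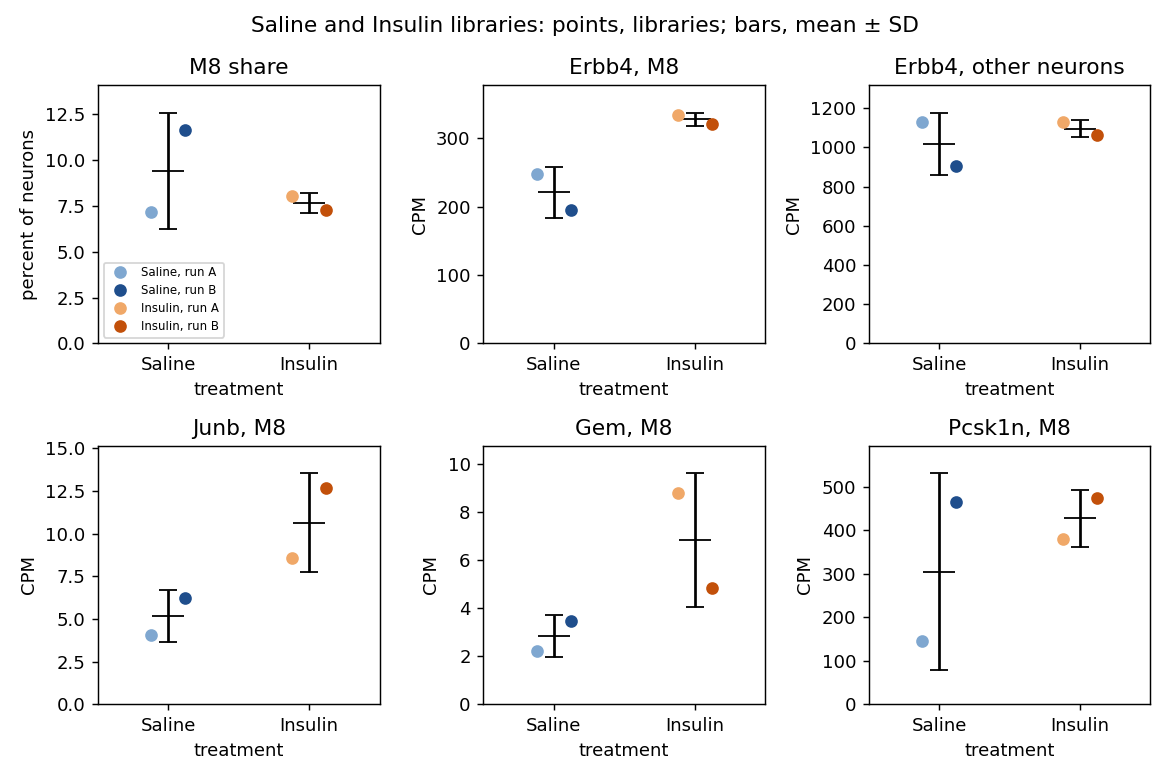
M8 share of neurons and levels of 4 genes in Saline and Insulin libraries, with points for libraries and bars for mean ± SD (n = 2). The groups separate for Erbb4, Junb and Gem in M8, and they overlap for the share, for Erbb4 in other neurons and for Pcsk1n, whose lowest value is the Saline library of run A.

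Early genes were measured as signs of recent activity. Their summed level over 28 genes in M8 was 62.7, 104, 93.1 and 121 CPM, in other neurons 119, 153, 180 and 267 CPM. In M8 the groups overlapped, and in other neurons they did not. The makeup of the other neurons also differed between libraries, and its part in these sums was not tested. Of 13 early genes that passed the filter in M8, 10 had a fitted change above 0, against 50.1% of all genes, and none passed the test. Their median log2 change was 0.26, against 0.00 over all genes. It rested on the Saline libraries: without that of run A the median was 0.0090, with 8 of 16 above 0, and without that of run B it was 0.96. The median over the 13 genes was 0.76 within run A and -0.01 within run B.

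Junb, a component of the AP-1 factor, was at 4.07, 6.23, 8.59 and 12.7 CPM in M8, with a log2 change of 1.01 ± 0.34 (SE; edgeR adjusted p = 1.00). Gem, a small GTPase that restrains calcium channels, was at 2.22, 3.44, 8.78 and 4.84 CPM, with a change of 1.26 ± 0.45 (edgeR adjusted p = 1.00). These 2 were the early genes with an unadjusted p under 0.05. Over all genes tested, 10.7% had both Insulin libraries above both Saline libraries and 12.7% had both below. Of the 13 early genes, only Junb and Gem had both above, while Nr4a1 and Npas4 had both below. The fitted log2 changes of the others were 0.77 for Btg2, 0.42 for Ier5, 0.39 for Jun, 0.33 for Jund, 0.26 for Rrad, 0.25 for Fosl1, 0.09 for Egr1, 0.05 for Ier3 and -0.33 for Klf6. Those of Jund, Ier5, Rrad, Egr1 and Ier3 changed sign when a library was left out. Compared with other neurons, 20 of 26 early genes had the lower response in M8, with a median difference of -0.37. Without the Saline library of run B that median was 0.16. Over all 19268 genes the median difference was 0.01, and the share with the lower response in M8 was not computed. The filter was applied to M8 and other neurons together, and in M8 alone only 13 early genes passed it. The count thus includes genes with few UMIs in M8 and is not a result about M8.

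The receptors and adaptors of the insulin pathway did not pass the test. Insr was at 120 and 104 CPM with Saline and at 117 and 105 CPM with Insulin, a log2 difference of -0.02 ± 0.16 (SE). Igf1r, the IGF-1 receptor, was at 157, 127, 120 and 125 CPM, and Irs2, an adaptor whose gene FoxO factors activate, at 23.9, 21.1, 20.3 and 19.8 CPM. In both, the Insulin libraries lay below the Saline libraries, by 0.23 ± 0.16 and 0.18 ± 0.21 log2 units. Lepr was also lower in both Insulin libraries, with a log2 difference of -0.21 ± 0.14 (edgeR adjusted p = 1.00). Irs1, Irs4 and Foxo1 had log2 differences of -0.05, -0.26 and 0.04. Of 33 insulin signalling genes tested, 12 were above 0 and 21 below, with a median of -0.05. Both Insulin libraries lay above both Saline libraries for 3 of the 33 and below both for 6. Over all genes these shares were 10.7% and 12.7%. None of the 33 was called with or without the run block.

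The genes called with the run block differed mainly within run A. The change was the larger in run A for 40 of the 44 higher and 72 of the 82 lower genes. The Saline library of run A held the lowest value for 41 of the 44 and the highest for 79 of the 82. The median log2 change of the 44 was 0.96 within run A and 0.24 within run B, and that of the 82 was -0.69 and -0.39. Predicted or unnamed transcripts made up 58 of the 82 and 3 of the 44. For all of these counts the share over all genes tested was not computed, so they do not set the called genes apart from the rest. Named genes with the smallest p that were higher with Insulin included Pcsk1n, Capn11, H3f3b, Erbb4, Glul, Cst3, Rprml, Nnat, Cfap77, mt-Co1, Pdlim7 and Slc16a11. Glul, glutamine synthetase, was at 10.4, 25.6, 28.2 and 38.1 CPM, and the histone gene H3f3b at 62.9, 133, 113 and 176 CPM, each lowest in the Saline library of run A. Capn11, a calpain, was at 2.40, 3.58, 6.03 and 14.99 CPM, and for it the change was the larger in run B. Lower named genes were Pcsk2os2, Rsph3a, Lysmd4, Dock2, Macrod2os1, Hcrtr2, Filip1l and Fam227b. Hcrtr2, the orexin receptor 2, was at 86.6, 126, 60.5 and 86.7 CPM, lower with Insulin within each run (log2 difference with the block -0.54 ± 0.12, edgeR adjusted p = 0.00275).

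Measures of RNA content moved with the same library. The summed level of 83 ribosomal protein genes in M8 was 831, 2034, 1208 and 1859 CPM, and that of Malat1, a nuclear RNA, was 46817, 63048, 55132 and 59665 CPM. Oxt, made by other neurons, was at 1.48 CPM in the Saline library of run A and at 41.1, 31.1 and 25.8 CPM elsewhere. Their part in the calls with the run block was not tested. The run difference itself was not the same in M8 and other neurons for 20 of 19268 genes (0.104%).

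**Figure D5:**
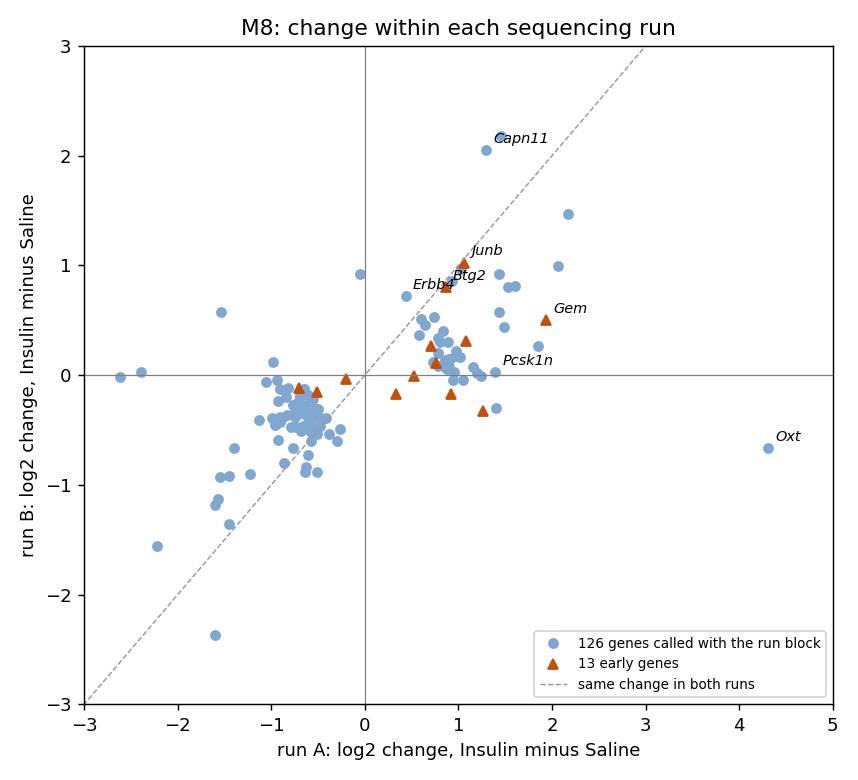
Log2 change with Insulin within run A (horizontal) and within run B (vertical) in M8, for 126 genes called with the run block and 13 early genes. Most called genes lie nearer 0 on the vertical than on the horizontal axis. Erbb4 and Capn11 lie above the line of equal change.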

How the data were processed

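Deposited were raw UMI counts of single nuclei. Per the submitters' processing notes the authors used Cell Ranger and the GRCm38 build; version, annotation and strand setting are not given in the sources used here. Library, run, treatment, cell type and population come from the authors' annotation of 36534 nuclei, of which 11 had no matching barcode. 4633 barcodes without annotation stayed apart. Counts were summed per library over M8 and other neurons and tested with edgeR 4.0.16 (TMM, filterByExpr, quasi-likelihood, Benjamini-Hochberg, threshold 0.05) in R 4.3.3. Alternatives used DESeq2 1.42.0, limma 3.58.1, other scalings, no filter, single libraries left out, and the run as replicate block. Deviations of same-run libraries correlated at 0.584 across 14447 genes, with the run taken from the deposited annotation. No nucleus was filtered and no doublet caller run. Subgroups came from scanpy 1.11.5 (Leiden, resolution 0.6, 1500 variable genes, 20 components). Fits were tested on simulated data. Named genes are the 25 leading genes, the extreme members of gene lists, the 15 most variable genes, the 8 smallest p in each direction (5 for the difference between neuron classes), early genes, insulin pathway genes and up to 20 called genes. Members and lists were chosen with earlier results of these data known. CPM logs used a prior count of 0.5. Intervals of counting error are not given, since libraries are the replicates. Some genes that the naming rule selects are not reported here.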

Additional observations from a re-analysis of the deposited data

Results flagged for a closer look

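The response of Erbb4 to Insulin differed between M8 and other neurons by 0.47 ± 0.07 (SE) log2 units, with an edgeR adjusted p of 0.0463 and the higher response in M8 within both runs. The 4633 barcodes that carry no annotation were outside every comparison. Nr5a1 was at 6.54 CPM in them, in 202 barcodes, above the 0.0808 CPM that 3 counts would give. In M8 it was at 50.4 CPM and in the mean of the other populations at 3.52 CPM.

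A fit with treatment and run called 1712 genes (11.9%) between run B and run A in M8, where run and sex cannot be told apart. For 20 of 19268 genes (0.104%) that difference was not the same in other neurons. This comparison, and the 6 genes named here, were chosen after their values were seen. Htr1f, a serotonin receptor, was at 62.0 and 71.7 CPM in the run A libraries of M8 and at 21.1 and 16.1 CPM in those of run B. In other neurons it was at 105 and 114 CPM, and at 61.9 and 45.8 CPM (difference of log2 changes -0.84, edgeR adjusted p = 0.000726). Hcrtr2, the orexin receptor 2, was 0.45 log2 units higher in run B in M8, and 0.71 higher relative to other neurons (edgeR adjusted p = 0.0373). Unc13c, a synaptic vesicle priming protein, was also higher in run B relative to other neurons, by 1.06 (edgeR adjusted p = 0.000517). Gpc5, Mad1l1 and Cftr were lower relative to other neurons, by -0.65, -0.57 and -1.37 (edgeR adjusted p = 0.000726, 0.00453 and 0.00784).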

How the results depend on the processing

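With 2 libraries per group, precision was set by the spread between them. The count of genes called in M8 was 0 under DESeq2 with and without the block, limma-voom, other scalings, no filter and both subsets of nuclei chosen after seeing the data (1929 nuclei in C22.Nr5a1, and 1869 with under 2 UMIs of GABA genes). It was 126 with the replicate block, and 0 to 2 with each library left out, the 2 being Oxt and Pcsk1n without the Saline library of run B. With the replicate block the early gene median was 0.32 and the share difference -1.74 points. The share difference ran from -3.98 to 0.51 points, and the early gene median from 0.0090 to 0.96, with libraries left out. The count of genes whose response differed was 2 against the 3 most similar populations, 0 with DESeq2, 22 without a filter, 8, 14, 24 and 27 with libraries left out, and 1 in both subsets. Of the 25 leading genes, 6 remained by thinned share of nuclei, and Nr5a1 and Rai14 were among those lost. Against the highest other population 13 remained, without a minimum CPM 19, and with libraries left out 24 to 25. Log2 changes of named genes that changed sign ran, with libraries left out, from -0.048 to 0.90 for Jund, -0.21 to 0.32 for Egr1, -0.53 to 1.33 for Ier3 (-0.35 without the Insulin library of run B), -0.16 to 1.72 for Ier5, -0.23 to 1.16 for Rrad, -0.17 to 0.15 for Insr (0.076 without that library), -0.16 to 0.082 for Irs1 (0.020 without it), -0.11 to 0.19 for Foxo1, -0.076 to 1.49 for Pcsk1n, -1.62 to 0.44 for Pcsk2os2, -1.10 to 0.074 for Lysmd4, -0.16 to 1.39 for Cst3, -1.001 to 0.055 for Macrod2os1, -0.19 to 1.92 for Cfap77, -1.09 to 0.11 for Filip1l, -0.073 to 1.15 for Pdlim7 and -0.10 to 1.19 for Slc16a11. In the subset of C22.Nr5a1, Ier3 was at -0.052, and in that with few GABA gene UMIs Ier3, Egr1 and Foxo1 were at -0.086, -0.14 and -0.027. The causes were not tested.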
